A study of Saccharomyces cerevisiae with 22 samples.

Results

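The comparison of fully aerobic growth with severe oxygen limitation rested on 8 arrays of Saccharomyces cerevisiae, 4 from steady states fed gas with 20.9% oxygen, the oxygen content of air, and 4 from steady states fed gas with 0.5% oxygen. They were selected by their oxygen labels from 22 arrays that span 5 oxygen levels, and all 5449 genes with a named probe set were compared. The strain at both levels was CEN.PK113-1A, a haploid of mating type alpha without auxotrophies, grown in glucose-limited chemostats at the same dilution rate, pH and temperature, in medium that held ergosterol and a detergent that carries oleate at every oxygen level. The 4 samples at 20.9% came from 4 cultivations, whereas those at 0.5% came from 2 cultivations, each sampled at steady state more than once. The labels do not tell which samples shared a vessel, and repeat samples of a cultivation also stand among the arrays at 1.0 and 2.8% oxygen that share in the estimate of error. Each p-value therefore measures the spread between samples, which may be partly technical. The fit over all levels called 1918 genes, against 1086 by a fit to these 8 arrays alone. With 1 weight per oxygen level, in which 20.9% had the lowest weight, 1444 were called. All of these fits keep the repeat samples at 0.5%, so the counts do not show what the repeats contribute. Cultures fed 2.8 or 20.9% oxygen tend to oscillate and had received extra exponentially growing cells to prevent it, a step that cannot be told apart from the oxygen level. The comparison asks how the transcriptome of cells that respire and ferment at the same time, on very little oxygen, differs from that of cells that only respire.

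In a chemostat limited by glucose the feed sets the growth rate, which was the same at both levels. With little oxygen the mitochondria cannot reoxidise all of the NADH that glucose breakdown yields, and part of the carbon leaves the cell as ethanol. In air all of the glucose can be respired, and where free sugar is scarce yeast relieves the repression of genes for the use of ethanol, acetate, lactate and fatty acids. Oxygen is sensed through haem, which activates the genes of respiration by way of the Hap1 and Hap2/3/4/5 regulators, and through sterols. Levels below are the deposited log2 intensities, and a log2 change is always the mean at 20.9% minus the mean at 0.5% oxygen.

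Of the 5449 genes 35.2% were called by limma, at an adjusted p under 0.01, and 15.9% were called higher and 19.3% lower at 20.9% oxygen. Changes were mostly small: the median fold of the called genes was 1.48, and 53.2% of them changed less than 1.5-fold. The large changes were unevenly split, since 6.07% of all genes were called with at least a 2-fold change, 4.22% higher and 1.85% lower, and 69 genes against 20 passed 4-fold. The median over all genes was a log2 change of -0.04. Bulk RNA does not tell a changed level in every cell from a changed share of the cells that express a gene, here or below. The 4 arrays at 20.9% did not overlap with the 4 arrays at 0.5% oxygen for 38.6% of all genes, 17.8% higher and 20.8% lower. Arrays at 20.9% oxygen spread more widely than those at 0.5%: the standard deviation of an array from its group mean was 0.344 in replicate 4, and 0.224, 0.181 and 0.211 in the others at 20.9%, against 0.083, 0.187, 0.111 and 0.177 at 0.5% oxygen.

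Genes with known oxygen responses and a marker of mating type were read first, as a check of the labels. The planned oxygen genes were not alike. HEM13 followed its known response, but the aerobic genes CYC1 and COX5A changed by -0.88 and -0.54 and the hypoxic gene AAC3 by 1.09. ANB1, also planned, is not given here. DAN1 sets both levels apart from anaerobic growth but not from each other. DAN1, a cell wall mannoprotein made without oxygen, averaged 4.92 ± 0.73 at 20.9% and 4.39 ± 0.20 at 0.5% oxygen (SD, n = 4 each), against a mean of 13.34 in the anaerobic arrays of the series. HEM13, the haem biosynthetic enzyme that consumes oxygen and is derepressed when haem is short, read 9.38, 9.35, 9.12 and 9.19 at 20.9% oxygen, against 10.27, 10.29, 10.30 and 10.48 at 0.5%, and no array of one level reached the other. MF(ALPHA)1, the alpha pheromone gene that alpha cells express, lay near the top of the intensity range, at 13.59 ± 0.15 at 20.9% and 14.12 ± 0.09 at 0.5% oxygen (SD, n = 4 each).

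**Figure D1:**
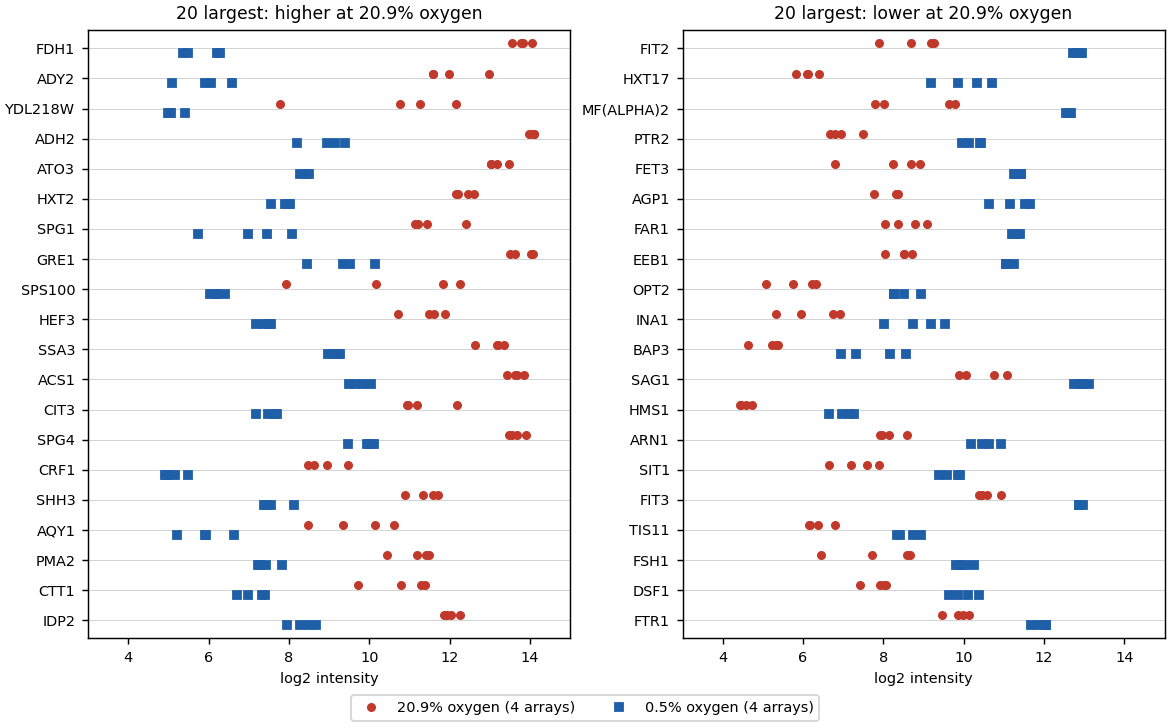
Log2 intensity of the 20 genes with the largest rise (left) and the 20 with the largest fall (right) at 20.9% oxygen among called genes whose arrays do not overlap. Every point is 1 array, with circles for 20.9% and squares for 0.5% oxygen; FDH1 and ADH2 are tight at 20.9%, while YDL218W and SPS100 hold 1 circle far below the other three.

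The strongest rise was in genes for the use of fermentation products and other non-sugar carbon. FDH1, which encodes the NAD-dependent formate dehydrogenase, read 13.82, 13.78, 13.56 and 14.05 at 20.9% oxygen, against 6.20, 6.29, 5.37 and 5.48 at 0.5%. This is a log2 change of 7.97 ± 0.32 (SE), or 250.0-fold (adjusted p = 1.65e-13). At 0.5% its values lie close to the dimmest 5% of the table, whose limit is 5.14, where arrays compress differences. ADY2, an acetate transporter of the plasma membrane, read 11.59, 11.58, 11.99 and 12.99 at 20.9% oxygen, against 6.59, 6.05, 5.91 and 5.10 at 0.5%, a change of 6.12 ± 0.42 (adjusted p = 4.1e-10). ADH2, the alcohol dehydrogenase that oxidises ethanol, was nearly constant at 20.9% with 14.07, 14.11, 13.98 and 14.09, and read 9.15, 8.95, 9.39 and 8.19 at 0.5% oxygen, 35.4-fold less. ATO3, of the same membrane protein family as ADY2, differed by 4.77 ± 0.10 (adjusted p = 1.07e-18) with very little spread at 0.5%. ACS1, the acetyl-CoA synthetase of cells grown on acetate or ethanol, read 13.44, 13.62, 13.69 and 13.84 at 20.9% oxygen, against 9.63, 10.05, 9.84 and 9.50 at 0.5% and rose 14.9-fold. Its housekeeping counterpart ACS2 stayed near one level, 12.16 ± 0.08 at 20.9% and 12.30 ± 0.03 at 0.5% oxygen (SD, n = 4 each), and was not called (adjusted p = 0.0623).

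Among 13 genes for ethanol and acetate use 10 were called higher and 1 lower, where 15.9% and 19.3% of all genes were, and the median log2 change was 0.99. Beside those above, JEN1, the lactate and pyruvate permease, rose by 2.45 ± 0.11, and the aldehyde dehydrogenases ALD3, ALD2, ALD6 and ALD4 by 2.50, 0.99, 0.80 and 0.65. ACH1, a mitochondrial enzyme that transfers coenzyme A to acetate, was the member called lower, at -0.65. The 4 measured genes of formate and propionate breakdown were all called higher. CIT3, PDH1 and ICL2 encode enzymes of the mitochondrial methylcitrate cycle, which detoxifies propionate. CIT3 read 10.96, 11.19, 10.93 and 12.18 at 20.9% oxygen, against 7.71, 7.48, 7.65 and 7.18 at 0.5%, PDH1 differed by 3.16 ± 0.12 and ICL2 by 3.03 ± 0.17, and replicate 4 at 20.9% was the highest array for each.

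Of 15 genes of the glyoxylate cycle and gluconeogenesis, 7 were called higher, each by more than 2-fold, and 1 lower, with a median of 0.83. IDP2, the cytosolic NADP-dependent isocitrate dehydrogenase, read 12.04, 11.93, 11.87 and 12.26 at 20.9% oxygen, against 8.50, 8.67, 8.27 and 7.95 at 0.5%. MDH2, the cytosolic malate dehydrogenase of gluconeogenesis, rose by 3.06 ± 0.20, and ICL1, isocitrate lyase, by 2.31 ± 0.29. MLS1, malate synthase, SFC1, the carrier that exchanges succinate for fumarate across the inner membrane, and FBP1, fructose-1,6-bisphosphatase, rose by 1.97, 1.70 and 2.15. IDP3, the peroxisomal isocitrate dehydrogenase that supplies NADPH for the breakdown of unsaturated fatty acids, rose by 3.01 ± 0.18. PCK1, which makes phosphoenolpyruvate in the same pathway, did not follow: its arrays overlapped, with 9.07, 8.75, 9.07 and 8.76 at 20.9% oxygen, against 8.14, 7.26, 9.44 and 7.47 at 0.5% (adjusted p = 0.0484). PYC1, a pyruvate carboxylase, was the member that fell, with 12.43, 12.39, 12.40 and 12.51 at 20.9% oxygen, against 13.23, 13.24, 13.31 and 13.27 at 0.5%. The regulators of these genes were not moved alike. SIP4, a transcription factor that binds carbon source response elements, differed by 3.45 ± 0.25 and was highest in replicates 3 and 4 at 20.9%. CAT8, the activator of the same elements, fell by 0.80 (adjusted p = 1.38e-06), and ADR1, the activator of ADH2 and of peroxisomal genes, was not called (0.18, adjusted p = 0.18).

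Nearly all measured genes of fatty acid breakdown rose. In yeast, beta-oxidation takes place wholly in peroxisomes, and acetyl units reach mitochondria by a carnitine shuttle. Of 18 genes 17 were called higher and none lower, and the median log2 change was 1.83, against -0.04 over all genes. CTA1, the peroxisomal catalase, read 12.30, 12.53, 12.31 and 13.12 at 20.9% oxygen, against 9.63, 9.81, 9.66 and 9.17 at 0.5%. PXA1, a subunit of the transporter that brings long-chain fatty acids into peroxisomes, differed by 2.75 ± 0.17, and FAA2, an acyl-CoA synthetase, by 1.89 ± 0.16. The enzymes of the spiral, POX1 (acyl-CoA oxidase), FOX2 (the multifunctional enzyme) and POT1 (thiolase), rose by 1.31, 2.00 and 1.77. The carnitine acetyltransferases CAT2 and YAT2 rose by 1.98 and 2.14. The mean of the list was 10.92, 11.00, 10.90 and 11.72 in the arrays at 20.9%, so replicate 4 lay apart, against 9.43, 9.54, 9.49 and 9.17 at 0.5% oxygen. Of the pair of factors that induce these genes in the presence of oleate, PIP2 was called (0.74), whereas OAF1, the member of the list that was not, stayed at 8.59 ± 0.21 at 20.9% and 8.48 ± 0.05 at 0.5% oxygen (SD, n = 4 each). Peroxisome biogenesis followed with 12 of 26 genes called higher and none lower (median 0.35), the largest change being in PEX18, a receptor partner for import of matrix proteins (1.33).

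Transcripts of the machinery of respiration itself were lower in the fully aerobic arrays, which do not measure protein. Of 23 genes of the respiratory chain and cytochrome c, 19 were called lower and 3 higher, with a median of -0.47. CYC1, iso-1-cytochrome c, read 12.55, 12.27, 12.03 and 12.22 at 20.9% oxygen, against 13.21, 13.25, 13.04 and 13.08 at 0.5%, with each value at 20.9% below each value at 0.5%. COX9 and COX6, small subunits of cytochrome c oxidase, differed by -0.83 and -0.74, QCR2 and RIP1 of the bc1 complex by -0.63 and -0.43, and NDI1, the internal NADH dehydrogenase that stands in for complex I in yeast, by -0.77. COX5A and COX5B encode interchangeable forms of one oxidase subunit, the first used in air and the second at low oxygen. COX5A changed by -0.54 and COX5B, which belongs to the hypoxic list, by -1.42. The 3 members that rose feed electrons into the chain from outside the matrix. NDE2, an external NADH dehydrogenase, read 11.01, 11.29, 11.28 and 11.94 at 20.9% oxygen, against 8.67, 8.99, 8.78 and 8.30 at 0.5%, a change of 2.69 ± 0.26, and the lactate dehydrogenases CYB2 and DLD1 rose by 1.13 and 0.84. NDE1, the other external NADH dehydrogenase, was not called (0.19, adjusted p = 0.0457).

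Of 16 ATP synthase genes 14 were called lower and none higher (median -0.39). ATP20, a subunit that binds synthases into dimers, changed most, with 11.86, 11.48, 11.45 and 11.65 at 20.9% oxygen, against 12.57, 12.53, 12.51 and 12.58 at 0.5%. ATP2 and ATP1, of the catalytic head, changed by -0.60 and -0.29. In the TCA cycle 10 of 16 genes were called lower and 2 higher (median -0.34), within a narrow range from -0.70 for SDH4, a succinate dehydrogenase anchor, to 0.33 for LSC1, a subunit of succinyl-CoA ligase. KGD1, of the 2-oxoglutarate dehydrogenase, and CIT1, the mitochondrial citrate synthase, changed by -0.61 and -0.35, and FUM1, fumarase, was higher by 0.24. The counts of lower calls for ATP synthase and the TCA cycle were 6 and 5 after cyclic loess normalisation of the arrays, and 5 and 6 when the model was fitted to these 8 arrays alone, a fit in which neither of the higher calls of the TCA cycle, LSC1 and FUM1, was kept (adjusted p = 0.0171 and 0.0405). AAC1, an ADP/ATP carrier of the inner membrane that was picked after its values were seen, fell by 1.51, with 10.66, 10.52, 10.44 and 10.60 at 20.9% oxygen, against 12.17, 11.91, 12.11 and 12.09 at 0.5%. The arrays at 20.9% were not uniform for these lists, since the mean of the respiratory chain was 12.01, 11.89, 11.85 and 12.24, against 12.27, 12.37, 12.23 and 12.15 at 0.5% oxygen, and replicate 4 at 20.9% lay within the range at 0.5%.

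Genes that build mitochondria were lower as well. Of 74 genes for mitochondrial ribosomal proteins 64 were called lower and none higher, and the median of -0.54 was larger in size than that of any respiratory list. That order depended on the fit: with array weights the respiratory chain had a median of -0.57, against -0.54 for the mitochondrial ribosome. No member changed as much as 2-fold. One of the 64, KGD4, is now known as a subunit of 2-oxoglutarate dehydrogenase (-0.55). MRPL37, a protein of the large subunit, read 9.32, 9.16, 8.68 and 8.92 at 20.9% oxygen, against 10.12, 10.13, 9.79 and 9.89 at 0.5%, a change of -0.97 ± 0.14. MRPL4, of the same subunit, read 9.64, 9.30, 9.46 and 9.26 at 20.9% oxygen, against 10.39, 10.46, 10.24 and 10.16 at 0.5%. The list mean was 9.82, 9.62, 9.54 and 9.53 at 20.9%, against 10.18, 10.17, 10.14 and 10.09 at 0.5% oxygen, so the arrays of the 2 levels did not overlap. In mitochondrial protein import 19 of 36 genes were called lower and 1 higher (median -0.31). HAP4, the regulatory subunit of the haem-dependent activator of respiration, itself fell by 0.64 (adjusted p = 5.51e-05), and HEM2, of haem synthesis, fell by 0.94. Of the 13 genes of haem synthesis and its regulators 5 were called lower and 1 higher.

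**Figure D2:**
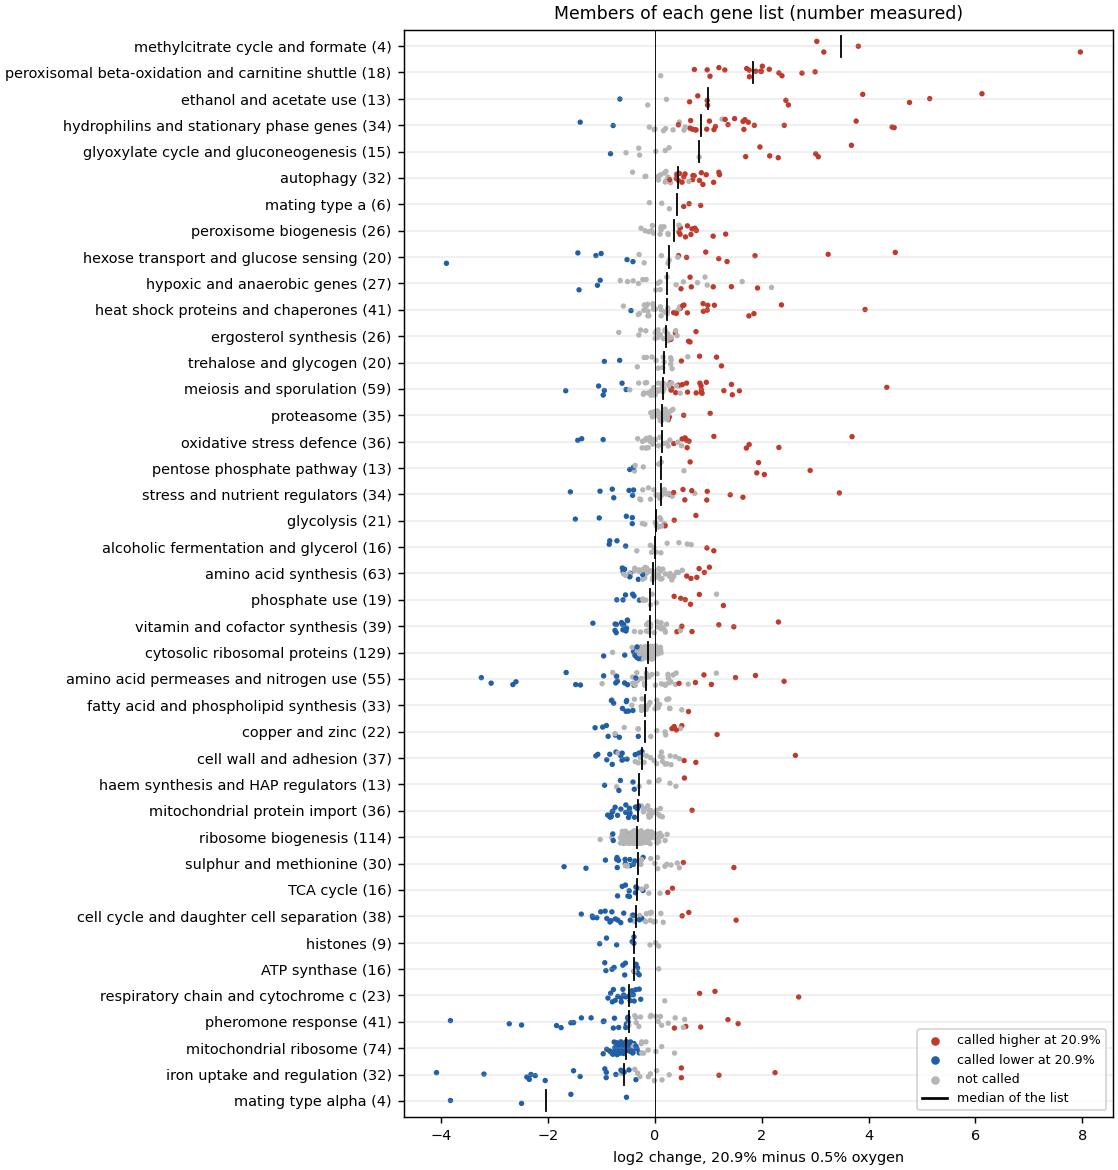
Log2 change (20.9% minus 0.5% oxygen) of every measured member of 41 gene lists, ordered by the list's median, which the black bar marks. Points are genes, coloured by whether they were called higher, lower or not called; the mitochondrial ribosome is shifted as a whole to the left, with 64 of 74 genes called lower, and beta-oxidation to the right.

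Hypoxic and anaerobic genes were called at shares close to those over all genes. Of 27 measured, 6 were called higher at 20.9% oxygen and 3 lower, which is 22.2% and 11.1% beside 15.9% and 19.3% over all genes, and the median was 0.23. Fitted to these 8 arrays alone, hypoxic and anaerobic genes gave 2 and 4. The 3 that fell were HEM13, COX5B and FET4, a low-affinity iron transporter (-1.02). TIR3, a cell wall mannoprotein, read 8.73, 9.27, 10.18 and 8.13 at 20.9% oxygen, against 7.39, 7.78, 7.69 and 7.70 at 0.5%, above 0.5% in every array but unevenly. AAC3, the anaerobic ADP/ATP carrier, read 6.05, 6.63, 8.11 and 7.72 at 20.9% oxygen, against 5.99, 6.19, 5.99 and 5.97 at 0.5%, and replicate 1 at 20.9% lay within the range at 0.5%. Its adjusted p, 0.00391 with all arrays, lay between 0.01 and 0.019 when replicate 1, 3 or 4 at 0.5%, or replicate 3 or 4 at 20.9%, was left out. The count of 6 was 3 without replicate 1 at 0.5%, 2 when replicate 3 or replicate 4 at 0.5%, or replicate 3 at 20.9%, was left out, and 9 without replicate 4 at 20.9%. Ergosterol synthesis, a pathway with several steps that need oxygen, had 5 of 26 genes called higher and none lower, all by less than 2-fold, and 9 higher without replicate 4 at 20.9% or after cyclic loess normalisation. ERG6, the sterol methyltransferase, averaged 13.35 ± 0.12 at 20.9% and 12.58 ± 0.04 at 0.5% oxygen (SD, n = 4 each), a change of 0.77.

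Transcripts for sugar entry differed gene by gene. HXT2, a high-affinity glucose transporter, read 12.21, 12.16, 12.62 and 12.46 at 20.9% oxygen, against 7.91, 8.02, 7.54 and 7.98 at 0.5%, a change of 4.50 ± 0.25 (adjusted p = 2.22e-11). HXT5, a transporter typical of slow-growing and starved cells, rose by 3.24 ± 0.32, and HXT4 by 1.88. HXT17 fell most, with 5.82, 6.40, 6.10 and 6.13 at 20.9% oxygen, against 10.32, 10.69, 9.86 and 9.18 at 0.5%, but its probe set is one that matches several transcripts, so near-identical hexose transporters may share the signal. HXT7, the high-affinity transporter that dominates in glucose-limited cultures, read by a probe set of the same kind, fell by 0.41, with means of 13.07 ± 0.17 at 20.9% and 13.47 ± 0.06 at 0.5% oxygen (SD, n = 4 each). Of the 20 genes of transport and sensing 8 were called higher and 6 lower, or 5 and 3 when the model was fitted to these 8 arrays alone. Without the dimmest 25% of genes only 9 of the 20 were left, with 3 called higher and 3 lower. HXT10 and HXT15, little-used transporters, changed by -1.44 and -1.10.

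Glycolytic and fermentative genes changed gene by gene. Of 21 glycolytic genes 3 were called higher and 5 lower, or 14.3% and 23.8%, beside 15.9% and 19.3% of all genes. The median was 0.03, and after cyclic loess normalisation 9 and 4 were called, with a median of 0.20, so no direction is given for glycolysis. PFK27, one of the enzymes that make the activator fructose-2,6-bisphosphate, changed most, by -1.49, and the hexokinases HXK1 and HXK2 changed by -0.53 and -0.42. PDC1, the main pyruvate decarboxylase, was not called, with 13.78 ± 0.13 at 20.9% and 13.83 ± 0.06 at 0.5% oxygen (SD, n = 4 each) (adjusted p = 0.443). ADH1, which makes ethanol, read 13.51, 13.47, 13.39 and 13.06 at 20.9% oxygen, against 14.07, 14.04, 14.08 and 14.08 at 0.5%, a change of -0.71 beside that of 5.15 in ADH2. ADH3, the mitochondrial form, changed by -0.85, and PDC5 and ADH5, further forms of the fermentative enzymes, by -0.55 and -0.84. Of 16 genes of fermentation and glycerol 4 were called lower and 2 higher, with GCY1, a glycerol dehydrogenase, at 1.11. In the pentose phosphate pathway, with 5 of 13 genes called higher and 2 lower, 4 of the rises were in minor copies of the enzymes: NQM1, GND2, TKL2 and SOL4 differed by 2.91, 2.05, 1.91 and 1.94, whereas TAL1, GND1 and TKL1, the main forms of the first 3, were not called (0.12, 0.07 and -0.38). SOL3, the main counterpart of SOL4, was the other member called higher, at 0.66. ZWF1, glucose-6-phosphate dehydrogenase, which has no such copy, fell by 0.47.

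Several other pairs of related enzymes differed in this way. They were picked after their values were seen, so nothing is tested about the pattern, and changes rather than levels are set side by side because levels of different probe sets cannot be ranked. PMA2, the minor proton pump of the plasma membrane, read 10.43, 11.42, 11.49 and 11.20 at 20.9% oxygen, against 7.28, 7.82, 7.44 and 7.22 at 0.5%, a change of 3.69 ± 0.19. The essential pump PMA1 read 12.42, 12.64, 12.69 and 12.19 at 20.9% oxygen, against 13.01, 13.07, 12.97 and 12.97 at 0.5%, and fell by 0.52. HEF3, the reserve form of translation elongation factor 3, differed by 4.02 ± 0.20 and the main form YEF3 by -0.59, a call that was lost without replicate 1, 3 or 4 at 0.5% (log2 changes of -0.58, -0.59 and -0.53) and was smaller, -0.33, without replicate 4 at 20.9%. SHH3 and SHH4, homologues of succinate dehydrogenase subunits, rose by 3.75 and 2.67, while SDH3 and SDH4 changed by -0.24 and -0.70. CIT3 and IDP2 rose by 3.81 and 3.68, while their counterparts in the mitochondrial TCA cycle, CIT1, and in the mitochondrial matrix, IDP1, changed by -0.35 and -0.47. All of them were read by probe sets designed for 1 transcript.

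Genes of stress and of resting cells rose in part. Among 34 hydrophilins and stationary phase genes 22 were called higher and 2 lower, with a median of 0.87, which was larger than for the 41 heat shock proteins and chaperones (15 higher, 1 lower, median 0.22; 4 lower without replicate 1 at 20.9%). GRE1, a hydrophilin induced by osmotic and oxidative stress, read 13.50, 14.04, 14.08 and 13.62 at 20.9% oxygen, against 9.52, 8.46, 10.13 and 9.35 at 0.5%, a change of 4.44 ± 0.50 (adjusted p = 5.55e-07). SPG4 and SPG1, needed for survival in stationary phase, rose by 3.77 ± 0.27 and 4.48 ± 0.65, and SPG1 was uneven at 0.5%, between 5.73 and 8.08. SSA3, an Hsp70 chaperone made under stress, read 12.63, 13.18, 13.34 and 13.21 at 20.9% oxygen, against 9.22, 8.98, 9.28 and 9.13 at 0.5%, a 15.3-fold rise, and SSA4, SSE2 and HSP42 rose by 2.37, 1.86 and 1.76. The constitutive Hsp70 gene SSA1 was not called (0.01, adjusted p = 0.935). HSP26, a small heat shock protein, was not called either, with 14.35, 14.47, 14.34 and 14.35 at 20.9% oxygen, against 13.87, 13.91, 14.03 and 13.96 at 0.5% (adjusted p = 0.0678), although its arrays did not overlap. These values, like those of HSP12 (14.39 ± 0.06 at 20.9% and 14.23 ± 0.04 at 0.5% oxygen (SD, n = 4 each)), lie close to the highest value in the table, 14.64, where an array can show little further rise.

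Of 34 regulators of stress and nutrient responses 10 were called higher and 7 lower, or 29.4% and 20.6%, beside 15.9% and 19.3% of all genes. MSN4, an activator of general stress genes, fell by 1.03, with 8.56, 8.50, 8.63 and 8.56 at 20.9% oxygen, against 9.64, 9.54, 9.68 and 9.49 at 0.5%. XBP1, a repressor made in stress and quiescence, and USV1, a factor needed for growth on non-fermentable carbon, rose by 1.41 and 0.98. RAS1, which activates adenylate cyclase, fell by 1.58, while RAS2, its main counterpart, and IRA2, an inhibitor of both, rose by 0.35 and 0.97. CRF1, a corepressor of ribosomal protein genes, read 8.47, 8.95, 8.64 and 9.48 at 20.9% oxygen, against 5.17, 5.48, 4.96 and 4.92 at 0.5%, with those at 0.5% close to the dim end of the table. YDL218W, of unknown function, and SPS100, a spore wall protein, were among the largest rises, but both were far lower in replicate 4 than in the other arrays at 20.9%. YDL218W read 10.77, 12.17, 11.25 and 7.79 at 20.9% oxygen, against 5.05, 5.06, 5.41 and 4.99 at 0.5%, and SPS100 read 10.16, 11.84, 12.26 and 7.92 at 20.9% oxygen, against 6.41, 6.19, 6.18 and 6.04 at 0.5%. Without that array their log2 changes were 6.27 and 5.22, against 5.37 and 4.34 with all arrays.

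Genes of defence against reactive oxygen rose in part. Of 36 genes 12 were called higher and 3 lower (median 0.13). CTT1, the cytosolic catalase, read 9.71, 10.79, 11.30 and 11.38 at 20.9% oxygen, against 7.33, 6.98, 7.39 and 6.70 at 0.5%, a change of 3.69 ± 0.31 (adjusted p = 6.58e-09). TSA2, a peroxiredoxin, GTT1, a glutathione transferase, GPX1, a glutathione peroxidase, and GRX2, a glutaredoxin, rose by 2.32, 1.77, 1.71 and 0.64. The superoxide dismutases SOD1 and SOD2 were not called, at -0.14 and -0.04 (adjusted p = 0.167 and adjusted p = 0.768). OYE2, an NADPH oxidoreductase, and GRX8, a glutaredoxin, changed by -1.44 and -1.37.

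Genes of iron uptake held 7 of the 20 largest falls. Cells short of iron activate the Aft1 regulon, which covers reductases of the surface, the high-affinity ferroxidase and permease, siderophore transporters and cell wall proteins that hold siderophores. Of 32 genes 18 were called lower at 20.9% oxygen and 4 higher, with a median of -0.58. FIT2, a cell wall mannoprotein, read 9.19, 9.27, 8.70 and 7.88 at 20.9% oxygen, against 12.72, 12.81, 12.94 and 12.91 at 0.5%, a level 17.0-fold higher at 0.5% oxygen. FIT3, of the same function, fell by 2.32. FET3, the multicopper ferroxidase, read 8.70, 8.90, 8.23 and 6.79 at 20.9% oxygen, against 11.26, 11.43, 11.28 and 11.44 at 0.5%, with replicate 4 lowest, and FTR1, the permease that works with it, fell by 2.05. The siderophore transporters ARN1, SIT1 and ENB1 changed by -2.39, -2.35 and -1.40. TIS11 (CTH2), which destabilises mRNAs of iron-using proteins, fell by 2.24, and AFT1 itself fell by 0.91 (adjusted p = 9.76e-07). SMF3, which exports iron from the vacuole, fell by 0.73. CCC2, a copper pump that loads Fet3 and is counted with the copper genes, fell by 0.91. The 4 members called higher included FRE4, a reductase, with 8.52, 8.61, 8.05 and 8.88 at 20.9% oxygen, against 6.20, 6.39, 6.41 and 6.06 at 0.5%, and ISU1, the scaffold on which iron-sulphur clusters are built, with 11.86, 12.13, 12.55 and 12.85 at 20.9% oxygen, against 11.19, 11.30, 10.97 and 11.13 at 0.5%. AFT2, a paralog of AFT1, was higher by 0.50.

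Genes of the pheromone pathway and genes specific to alpha cells were lower. Of 41 pathway genes 20 were called lower and 5 higher (median -0.49), and these 20 include all 4 markers of alpha cells. MF(ALPHA)2, the minor alpha pheromone gene, read 9.79, 9.64, 8.01 and 7.79 at 20.9% oxygen, against 12.67, 12.66, 12.55 and 12.64 at 0.5%, a level 14.2-fold higher at 0.5%. SAG1, the alpha agglutinin of the surface, read 11.07, 10.75, 9.89 and 10.05 at 20.9% oxygen, against 12.89, 12.76, 13.12 and 12.96 at 0.5%, and STE3, the receptor for a-factor, changed by -1.57 ± 0.16. FAR1, which arrests the cell cycle in response to pheromone, read 9.09, 8.80, 8.35 and 8.03 at 20.9% oxygen, against 11.21, 11.31, 11.26 and 11.39 at 0.5%. FUS1, AGA1 and SST2, targets of the pathway that act in fusion, adhesion and desensitisation, changed by -1.75, -1.37 and -1.52, and the kinase FUS3 by -0.95. STE12, the transcription factor at the end of the pathway, missed the threshold (-0.37, adjusted p = 0.0113). Within 20.9% oxygen the arrays were not alike: replicates 3 and 4 lay below replicates 1 and 2 for MF(ALPHA)2, SAG1, STE3, FAR1, FUS1, FUS3 and AGA1, and the list mean was 9.00, 8.91, 8.62 and 8.61, against 9.28 to 9.34 at 0.5%. PRM4 and PRR2, a pheromone-regulated gene and a kinase linked to the pathway, were higher, by 1.56 and 1.37, and so were the a-specific BAR1, a protease for alpha pheromone, STE6 and STE2, by 0.86, 0.64 and 0.54. Genes specific to a cells were dim in this alpha strain. The mean of the 6 measured was 7.00 at 20.9% and 6.61 at 0.5% oxygen, and all 6 lay among the dimmest 25% of genes. The fit to these 8 arrays alone called 2 of them higher.

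**Figure D3:**
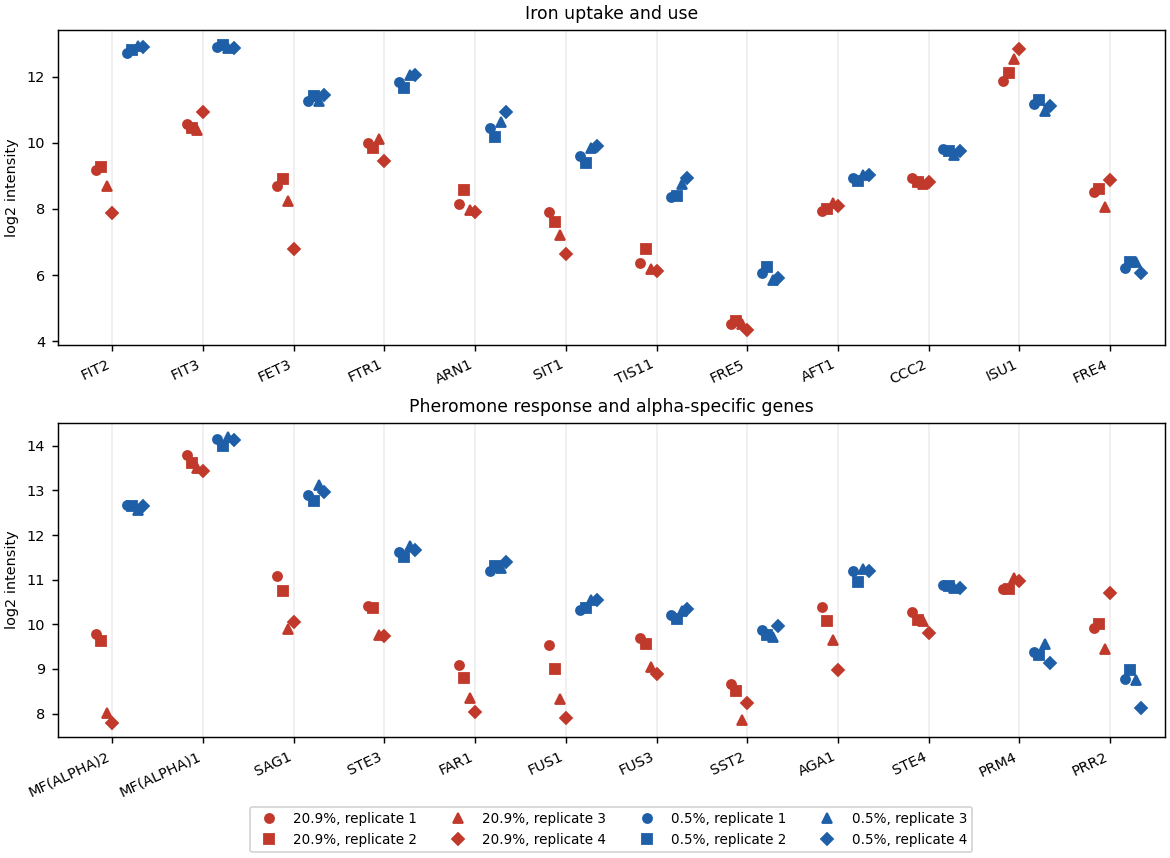
Log2 intensity in each array of 12 genes of iron uptake and use (top) and 12 genes of the pheromone response or specific to alpha cells (bottom), with arrays at 20.9% oxygen left of those at 0.5% and 1 symbol per replicate number, which pairs no arrays. For FIT2, FET3, MF(ALPHA)2 and FAR1 the levels are several log2 units apart, and at 20.9% replicates 3 and 4 lie below replicates 1 and 2.

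Part of the genes of the division cycle were lower. Of 38 genes of the cell cycle and of daughter cell separation 19 were called lower and 3 higher (median -0.35). CLN3 and CLN2, cyclins that start the cycle, changed by -0.93 and -1.16, while CLN1 was not called (-0.08). RNR1, the large subunit of ribonucleotide reductase, read 10.62, 10.54, 10.55 and 9.89 at 20.9% oxygen, against 11.44, 11.42, 11.50 and 11.58 at 0.5%, whereas RNR3, its counterpart induced by DNA damage, read 8.68, 9.02, 8.99 and 8.48 at 20.9% oxygen, against 7.20, 7.44, 7.30 and 7.14 at 0.5%. RNR2 and RNR4, of the small subunit, were also higher, by 0.64 and 0.51, and the 3 genes of the list called higher were all of this enzyme. DSE1, DSE2, SCW11 and CTS1, which act when daughter cells separate, changed by -1.38, -1.17, -1.01 and -0.84. Of 9 histone genes 6 were called lower and none higher, HTB2 the most with 11.26, 11.00, 11.24 and 10.31 at 20.9% oxygen, against 11.92, 12.05, 11.95 and 12.00 at 0.5%.

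Among 55 genes of amino acid permeases and nitrogen use 15 were called lower and 7 higher. These counts are 27.3% and 12.7%, beside 19.3% and 15.9% of all genes, and 11 were called higher without replicate 1 at 20.9%. PTR2, the transporter of small peptides, read 6.67, 6.95, 6.80 and 7.49 at 20.9% oxygen, against 9.96, 10.39, 10.13 and 10.42 at 0.5%, and AGP1, a permease of wide range, read 8.30, 8.35, 8.33 and 7.75 at 20.9% oxygen, against 11.16, 10.64, 11.53 and 11.66 at 0.5%. BAP3, which takes up branched-chain amino acids, read 4.63, 5.22, 5.33 and 5.38 at 20.9% oxygen, against 7.31, 6.93, 8.15 and 8.56 at 0.5%, a change of -2.60 whose lower end lies at the dim end of the table. TAT2, for tryptophan, and OPT2, of the oligopeptide transporter family, changed by -1.48 ± 0.17 and -2.66 ± 0.53. PUT4, the proline permease, CAR2, which breaks down ornithine, and ARO9, an aminotransferase of aromatic amino acids, rose by 1.88, 1.51 and 2.42. MEP2, an ammonium permease, was not called, with 12.27, 11.99, 11.81 and 9.92 at 20.9% oxygen, against 11.73, 11.90, 11.38 and 11.64 at 0.5%, where replicate 4 at 20.9% stood far below the others. Sulphur assimilation was lower in 14 of 30 genes and higher in 2 (4 without replicate 1 at 20.9%), with SAM3, a permease for S-adenosylmethionine, at -1.70, MUP1, for methionine, at -1.29, and MET3, ATP sulphurylase, at -0.92.

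Autophagy and meiotic genes rose in part. Of 32 autophagy genes 18 were called higher and none lower (median 0.43), or 9 when the model was fitted to these 8 arrays alone. ATG8, whose product coats the autophagosome, read 10.65, 10.84, 11.13 and 11.68 at 20.9% oxygen, against 10.19, 10.24, 10.41 and 10.11 at 0.5%, and ATG39, a receptor for the nuclear envelope, rose by 1.21. ATG1, the kinase that starts the process, rose by 1.10, but replicate 1 at 20.9% lay within the range at 0.5%. Of 59 meiosis and sporulation genes 20 were called higher and 6 lower, most of them dim in this haploid strain: the list mean lay between 6.20 and 6.31 at 20.9% and between 5.94 and 6.02 at 0.5% oxygen. IME1, the master activator of meiosis, read 8.45, 8.45, 8.85 and 8.97 at 20.9% oxygen, against 7.40, 7.45, 7.60 and 7.09 at 0.5%, and DMC1, a meiotic recombinase, rose by 1.58. AQY1, a water channel of spores, read 9.34, 10.62, 10.14 and 8.47 at 20.9% oxygen, against 5.92, 6.64, 5.93 and 5.22 at 0.5%, and was lowest in replicate 4 at 20.9%.

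Other genes among the largest falls belonged to several classes. EEB1, which makes ethyl esters of fatty acids from ethanol, read 8.51, 8.72, 8.04 and 8.51 at 20.9% oxygen, against 11.05, 11.06, 11.24 and 11.08 at 0.5%. HMS1, a regulator linked to filamentous growth, read 4.44, 4.59, 4.72 and 4.45 at 20.9% oxygen, against 6.97, 6.65, 7.27 and 7.15 at 0.5%, with 20.9% at the dim end of the table. FSH1, a putative serine hydrolase, changed by -2.15 ± 0.32 and INA1 by -2.63 ± 0.32. DSF1, a mannitol dehydrogenase relative read by a probe set for several transcripts, fell by 2.14. The cell wall list had 14 of 37 genes called lower and 3 higher, or 37.8% and 8.11%, beside 19.3% and 15.9% of all genes. The count of 3 was 6 without replicate 1 at 20.9%, or after cyclic loess normalisation. FKS1, a glucan synthase, fell by 1.10, while PIR3, a wall protein, rose by 2.63.

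For ribosome genes single arrays set the values. Of 114 genes of ribosome biogenesis 4 were called lower and none higher, although the list median was -0.32; the count was 2 without replicate 1 or 4 at 0.5% or replicate 4 at 20.9%, and 7 without replicate 1 at 20.9%. The list mean was 9.26, 9.13, 9.25 and 8.09 in the arrays at 20.9%, against 9.28, 8.86, 9.16 and 9.67 at 0.5% oxygen, so only replicate 4 at 20.9% lay outside the range at 0.5%. NSR1, a nucleolar protein, shows this in a single gene, with 11.47, 11.25, 11.26 and 9.06 at 20.9% oxygen, against 11.37, 10.55, 11.27 and 11.88 at 0.5% (adjusted p = 0.309). The 129 cytosolic ribosomal protein genes included 18 called lower and none higher (median -0.13). Without replicate 1 or replicate 4 at 0.5% oxygen that count was 8 or 5, and without replicate 3 or 4 at 20.9% it was 11 or 9. After cyclic loess normalisation the median of the list was 0.01, with 2 genes called higher and 2 lower, and no direction is given for it. Amino acid synthesis had 6 of 63 genes called higher and 7 lower, or 9.52% and 11.1%, beside 15.9% and 19.3% of all genes. An array stood apart, replicate 3 at 20.9%, where the list mean was 11.30. It was 10.77 to 10.82 in the other arrays at that level and 10.84 to 11.01 at 0.5% oxygen. Without replicate 3 at 20.9% 16 genes were called lower, and without replicate 1 at 20.9% 10 were called higher. After cyclic loess normalisation 8 genes of amino acid synthesis were called higher and 3 lower, and by the fit to these 8 arrays 3 and 1, so no direction is given for it either.

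**Figure D4:**
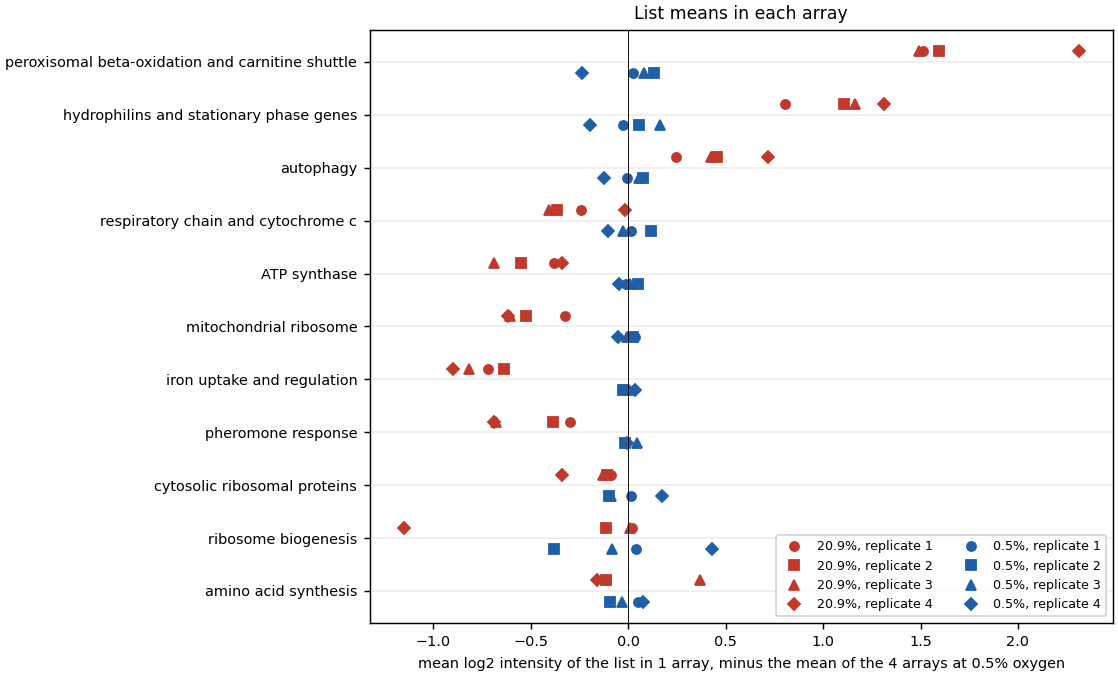
Mean log2 intensity of 11 gene lists in each array, given as the difference from the mean of the 4 arrays at 0.5% oxygen, with 20.9% above 0.5% in each row. Mitochondrial ribosome, iron and pheromone lists are separated in every array, while in ribosome biogenesis replicate 4 at 20.9% alone lies outside the range at 0.5%, and in amino acid synthesis replicate 3 at 20.9% lies above and the other three lie below all arrays at 0.5%, with means of 10.93 at both levels.

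The arrays at 1.0 and 2.8% oxygen show where between the end points a gene had left its level at 0.5%. Over all genes the share called was 0.165% for 1.0% minus 0.5% oxygen, 5.67% for 2.8% minus 0.5%, and 40.5% for 20.9% minus 2.8%. These contrasts share arrays, so their values are set side by side without a test of agreement, and 2 of the 4 arrays at 2.8% were collected by a different protocol, direct centrifugation, from those at 0.5 and 20.9%. FDH1 already differed at the lowest step: its means were 5.34, 5.84, 7.53, 10.59 and 13.80 from the anaerobic to the fully aerobic arrays, in order of the 5 levels, and 1.0% minus 0.5% was 1.69 (adjusted p = 0.00792). ATO3 averaged 9.83, 8.41, 8.54, 11.81 and 13.18 over the same levels, so that most of its rise lay between 1.0 and 2.8%. PDH1 and ARO9 were close to their final level at 2.8%, with 2.8% minus 0.5% at 2.73 (adjusted p = 1.75e-12) and 2.22 (adjusted p = 6.69e-08) and 20.9% minus 2.8% at 0.43 (adjusted p = 0.00554) and 0.20 (adjusted p = 0.385). ACS1, CIT3, HXT2 and IDP2 rose over both steps, by 1.66, 2.01, 2.14 and 2.34 from 0.5 to 2.8% and by 2.23, 1.80, 2.36 and 1.34 from 2.8 to 20.9%.

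Other genes were higher at 20.9% but not at 2.8% oxygen. SSA3 averaged 8.50, 9.15, 8.81, 8.45 and 13.09 at the 5 levels from 0 to 20.9%, and 2.8% minus 0.5% was -0.71 (adjusted p = 0.00881), a call in the opposite direction. CTT1, HEF3, NDE2 and HXT5 gave -0.89, -0.15, -0.32 and -0.34 for 2.8% minus 0.5%, none of them called, and 4.58, 4.17, 3.01 and 3.58 for 20.9% minus 2.8%. TKL2, the second transketolase, first fell by 2.11 and then rose by 4.02. In the chaperone list 6 of 41 genes were called lower and none higher at 2.8% than at 0.5% oxygen, and 7 of 34 lower and none higher among hydrophilins and stationary phase genes, where the shares over all genes were 3.08% and 2.59%.

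Falls were likewise seen at either step. HXT17, EEB1, HMS1, BAP3 and DSF1 differed between 2.8 and 0.5% by -3.60, -2.71, -2.62, -3.08 and -1.79, all called, and between 20.9 and 2.8% by -0.29, 0.04, 0.15, 0.49 and -0.34, none called. BAP3 had dropped by 1.0% oxygen, where it averaged 5.29 (-2.44 (adjusted p = 0.000275) for 1.0% minus 0.5%). FIT2, of iron uptake, averaged 13.26, 12.85, 12.72, 13.04 and 8.76 from 0 to 20.9% oxygen, with most of its fall between 2.8 and 20.9%. No gene of the iron list was called lower at 2.8% than at 0.5%, where the share over all genes was only 3.08%, so this count of 0 says little about the list, while 16 of 32 were called lower at 20.9% than at 2.8%, against 21.9% of all genes (18.6% were called higher). The pheromone list, the mitochondrial ribosome, the respiratory chain and ATP synthase also had 0 genes called lower at the first of these steps, and 23 of 41, 63 of 74, 19 of 23 and 14 of 16 at the second. MF(ALPHA)2 averaged 6.66, 12.63, 12.94, 13.06 and 8.81 at the 5 levels, the anaerobic value being the lowest. CYC1 averaged 11.06, 13.15, 13.32, 13.30 and 12.27, so that 20.9% oxygen lay between the anaerobic level and the 3 levels of limited oxygen.

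**Figure D5:**
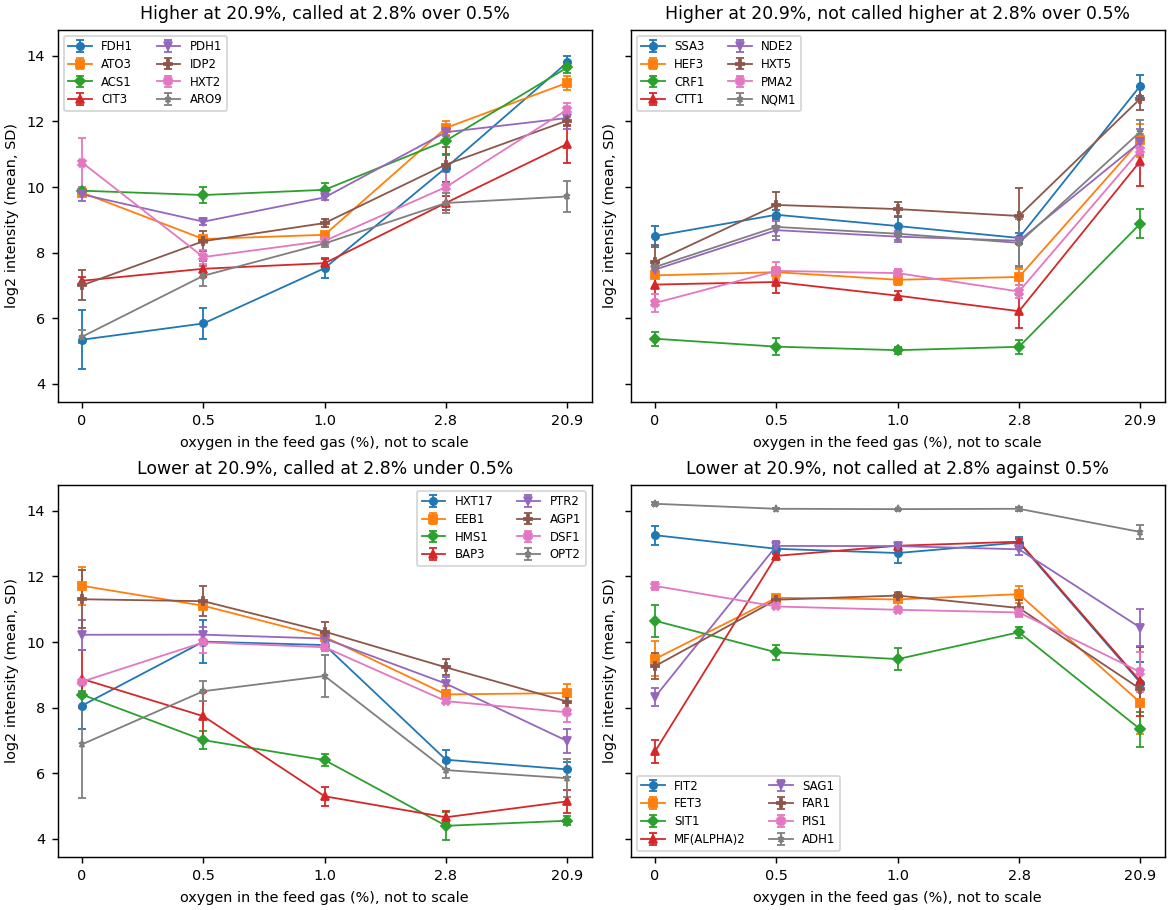
Mean log2 intensity (error bars, SD; 6 arrays at 1.0% oxygen and 4 at every other level) of named genes at the 5 oxygen levels, on an axis that is not to scale. Genes in the left panels had moved at 2.8% oxygen, those in the right panels were not called in that direction until 20.9%, as for SSA3 with 8.45 at 2.8% and 13.09 at 20.9% oxygen.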

How the data were processed

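RNA from steady-state chemostat cultures had been hybridised to GeneChip Yeast Genome 2.0 arrays. The deposited table holds log2 intensities of 5716 probe sets on 22 arrays, which the authors had normalised together by RMA, so a level depends on all arrays. No value was rescaled here. Probe sets were named through the platform annotation and current locus names (12 symbols updated). Of several probe sets of 1 gene (47 genes) the most specific was kept, which left 5449 genes, 71 of them read by a probe set for several transcripts of a family and 10 by one with partly shared probes. The remaining 218 probe sets had no gene name.

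A linear model over all 5 oxygen levels was fitted with limma 3.58.1 in R 4.3.3, with the Benjamini-Hochberg adjustment over 5449 genes. A gene was called at an adjusted p under 0.01. The 4 arrays per level limit the precision (median SE of a log2 change 0.10). Named genes are the 20 largest changes in each direction among called genes whose arrays do not overlap, and members of 41 gene lists. AAC1 and some genes of the enzyme pairs were added after their values were seen. The members and the lists were chosen with earlier results of these data known. The script was tested on simulated data. Alternatives changed the normalisation, the filter on dim genes, the choice of probe set, the variance model, the arrays fitted, the replicate block and the threshold. The fit without replicate 4 at 20.9% and replicate 2 at 0.5% was chosen after seeing the data. Motifs in promoters had been planned and were not analysed here, for want of sequences.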

Additional observations from a re-analysis of the deposited data

Results flagged for a closer look

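Within each group of 4 arrays, the named genes and the means of the gene lists were searched for 1 array whose gap to its nearest neighbour took up most of the whole range, past the critical value of Dixon's test, which chance passes in about 1 in 20 groups. Of 518 groups 35 passed, 23 at 20.9% and 12 at 0.5% oxygen, and replicate 4 at 20.9% was the array apart in 19 of them. This array stood high for the beta-oxidation list, with a mean of 11.72 beside 10.90 to 11.00 in the others, for peroxisome biogenesis (9.34 beside 9.01 to 9.05) and for fatty acid and phospholipid synthesis (10.29 beside 10.11 to 10.14). It stood low for cytosolic ribosomal proteins (11.94 beside 12.15 to 12.19), ribosome biogenesis (8.09 beside 9.13 to 9.26) and the cell wall (10.07 beside 10.37 to 10.42). Among genes it was high for FAA2 at 11.56, FOX2 at 13.56, POX1 at 12.91, PXA1 at 12.18, RIP1 at 12.20 and GRX2 at 12.64, and low for NSR1 at 9.06, YEF3 at 11.95, RAS1 at 7.81, TKL1 at 11.05, RNR1 at 9.89, IZH1 at 9.35 and AGP1 at 7.75.

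Other arrays stood apart less often. At 20.9% oxygen replicate 3 was high for the amino acid synthesis list (11.30 beside 10.77 to 10.82) and low for HXT7 at 12.81, replicate 1 was low for ALD3 at 8.29, and replicate 2 was high for HSP26 at 14.47. At 0.5% oxygen replicate 4 was high for HXT4 at 6.93 and HEM13 at 10.48 and low for CIT1 at 13.33, FUM1 at 12.44, PIP2 at 8.70 and QCR2 at 13.07. Replicate 2 was high for AAC3 at 6.19 and ZWF1 at 12.70 and low for AGA1 at 10.96, and replicate 3 was high for EEB1 at 11.24 and YDL218W at 5.41 and low for the vitamin list, with a mean of 9.26 beside 9.30.

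Of the 218 probe sets without a gene name, which the comparisons above leave out, 84 were called between 20.9% and 0.5% oxygen by limma, 50 higher and 34 lower at 20.9%, and 21 changed at least 2-fold. Among the 5449 named genes 35.2% were called, 15.9% higher and 19.3% lower, and 6.07% were called with at least a 2-fold change. Over both directions the share of calls among unnamed probe sets was thus close to that among named genes. Calls higher outnumbered calls lower among unnamed probe sets only, and calls of at least 2-fold made up a larger share of them. What they measure is not analysed here.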

How the results depend on the processing

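The main count of 1918 genes called at 20.9% against 0.5% oxygen lay between 1607 and 2101 when 1 array was left out, and no gene was called in the opposite direction in any alternative. With the model fitted to the 8 arrays alone 1086 genes were called, which leaves fewer samples for the spread, and with 2 of the samples at 0.5%, replicates 2 and 3, 1188. The other 5 choices of 2 samples gave 1288 to 1527, and a fit with 1 weight per oxygen level 1444. Since the labels do not tell which samples shared a vessel, the 2 samples of a choice may come from the same cultivation. Repeat samples at other oxygen levels were not left out in these choices. The counts therefore do not show what independent cultivations alone would give. The count of 331 genes that changed at least 2-fold lay between 296 and 399 with 1 array left out and was 215 without the dimmest 25% of genes, and the 584 listed genes called became 520 to 635 with 1 array left out. Leaving out replicate 4 at 20.9% and replicate 2 at 0.5% together, chosen after seeing the data, gave 1633. Replicate numbers did not pair the arrays: deviations of same-numbered arrays from their group means correlated at 0.09, -0.08, -0.02 and -0.47. The replicate block called 1580 genes over 5 levels, but with the 8 arrays alone 484, of which 223 were listed genes. Cyclic loess turned the split of calls to 1016 higher and 845 lower, against 867 and 1051.

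Of 218 genes named, 196 were called. The fit without the dimmest 25% of genes leaves out 36 of these, and 102 of the others were called in every alternative. Signs turned only in genes that were not called. After cyclic loess ACS2 was at 0.01, PDC1 at 0.11, SOD1 at 0.03 and SOD2 at 0.12, and SOD2 was at 0.01 after quantile normalisation. With array weights PDC1 was at 0.02 and MEP2 at 0.20, and MEP2 was at 0.44 without the 2 arrays above. With 2 samples at 0.5% CLN1 reached 0.01, SOD2 0.01, 0.02 and 0.03, and SSA1 -0.01, -0.01 and -0.05. With 1 array left out CLN1 ran from -0.19 to 0.01, GND1 from -0.01 to 0.12, MEP2 from -0.42 to 0.36, NSR1 from -0.74 to 0.06, PDC1 from -0.09 to 0 and SSA1 from -0.02 to 0.05. The causes of these differences were not tested. Values near either end of the intensity range are compressed, which limits folds for genes such as FDH1 and ADH2. Counts of promoter motifs were planned and not run, since no sequences were at hand.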

Other observations

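Vitamin genes differed gene by gene. Of 39 genes of vitamin and cofactor synthesis 13 were called lower at 20.9% oxygen and 6 higher, with a median log2 change of -0.09. These counts are 33.3% and 15.4%, beside 19.3% and 15.9% of all genes. BIO5, the importer of a biotin precursor, read 8.03, 7.77, 8.83 and 7.35 at 20.9% oxygen, against 5.67, 5.80, 5.59 and 5.66 at 0.5%, and BIO3, which acts on the same precursor, rose by 1.20, whereas BIO2, biotin synthase, fell by 0.72. THI4, of thiamine synthesis, rose by 1.48. The route from tryptophan to NAD has steps that need oxygen, and its genes BNA1, BNA2, BNA4 and BNA5 changed by -0.75, -0.74, -0.62 and -0.61, while BNA3 and BNA7 were not called (0.12 and 0.12).

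Storage sugars had 4 of 20 genes called higher and 2 lower, or 20.0% and 10.0%, beside 15.9% and 19.3% of all genes. GPH1, glycogen phosphorylase, read 11.28, 11.21, 10.99 and 11.58 at 20.9% oxygen, against 12.27, 12.48, 12.17 and 11.91 at 0.5%. ATH1, the acid trehalase, and TPS2, of trehalose synthesis, rose by 1.25 and 0.84. Of 22 copper and zinc genes 7 were called lower and 6 higher, or 31.8% and 27.3%, beside 19.3% and 15.9% of all genes. IZH3, IZH2 and IZH1, of a membrane protein family linked to zinc, changed by -1.12, -0.98 and -0.87.

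In the synthesis of fatty acids and phospholipids 8 of 33 genes were called lower and 1 higher, or 24.2% and 3.03%, beside 19.3% and 15.9% of all genes. CHO1, PSD1 and OPI3, which are among the enzymes on the way to phosphatidylcholine, changed by -0.77, -0.81 and -0.60. Phosphate use had 6 of 19 genes called in each direction, or 31.6%, where 15.9% of all genes were called higher and 19.3% lower. The proteasome list had 5 of 35 genes called higher, or 14.3% beside 15.9% of all genes, and none lower. The count of 5 was 2 when replicate 1, 2 or 4 at 0.5% or replicate 3 or 4 at 20.9% was left out, 8 without replicate 1 at 20.9%, and 22 after cyclic loess normalisation. RPN4, the activator of proteasome genes, is a member of this list and is counted among the 5. It read 11.37, 11.67, 11.88 and 11.90 at 20.9% oxygen, against 10.59, 10.64, 10.78 and 10.67 at 0.5%.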
